A study of Mus musculus with 6 samples.

Results

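The genes described here are 10 transcription factor genes of the mouse heart culture: the FOS family (Fos, Fosb, Fosl1, Fosl2), the JUN family (Jun, Junb, Jund), and Egr1, Atf3 and Creb5. They are 10 of the 20066 genes listed, taken by symbol. Creb5 was chosen by its difference between αKG and DMSO in these same libraries, where it had stood among the largest rises, and the other 9 were picked by family with results of the same comparison known. Their αKG and DMSO values are therefore given as a description, with no test.

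The 6 libraries came from total RNA of cardiomyocytes of P0-1 C57BL/6 mice kept in culture. The 3 DMSO libraries received DMSO, a common solvent. The 3 αKG libraries received 100 µM of a cell-permeable form of α-ketoglutarate, a Krebs cycle metabolite and cofactor of many dioxygenases, and were harvested at 96 h per the labels, while the study's methods give another concentration. All 6 share strain and age. The hearts were dissociated and plated with no sort of cells named, so other heart cells can be present, and RNA was taken at a single time. The study's methods, in their part on imaging, make a neonatal sample 1 isolation from pooled hearts, but the labels do not say that the RNA libraries came from separate isolations, so that p-values below measure only the spread between these samples.

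FOS and JUN proteins are basic leucine zipper (bZIP) factors that pair into AP-1, a dimer which binds the TPA response element. JUN proteins can pair with one another, whereas FOS proteins need a JUN partner, and ATF and CREB relatives such as ATF3 and CREB5 share the zipper and prefer the cAMP response element. Immediate early genes among the members include Fos, Fosb, Jun, Junb, Egr1 and Atf3. Serum, stretch, hypertrophic agonists or the dissociation of tissue switch them on within minutes without new protein synthesis, and their mRNAs are short-lived.

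The values are reads per gene that the authors divided by a library factor and rounded, called normalized counts below. Each library held an estimated 3726069 to 4427587 reads in genes. A Benjamini-Hochberg adjusted p under 0.05 in limma, fitted on log2(normalized count + 1) over all genes, is called here a pass. Of all genes 3.78% passed, 2.83% higher and 0.952% lower in αKG, and the median log2 difference over all genes was 0.04. αKG replicate 3 stood apart: it correlated with the other αKG libraries at 0.962 and 0.963 over genes, and with DMSO libraries at 0.977 to 0.98. Without it 7466 genes passed (37.2%), 3865 higher and 3601 lower, without αKG replicate 1 or 2 none did in limma (3324 and 3244 genes at an unadjusted p under 0.05), and without DMSO replicate 1, 2 or 3 there were 152, 3 and 4. Markers of cardiomyocytes were present (12 of 12 measured, with summed normalized counts of 80562 to 83122 in DMSO and 113900, 117009 and 85125 in αKG replicates 1 to 3). Most of this sum was Ttn, at 51569, 54216 and 53157 in DMSO and 80306, 84136 and 55569 in αKG. The median log2 difference over the 12 markers was only 0.07. Markers of fibroblasts, epicardium, endothelium and mural cells were present too. In bulk RNA, fewer cells of a type and less RNA per cell cannot be told apart.

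Sequence at the starts of the members was read first, because members of this group are known to act on each other's promoters. RefSeq (GRCm38.p6) windows from 250 bases before to 50 after a start were at hand for 8 of the 10 members, 9 windows in all since Creb5 has 2 starts, and not for Fosl1 or Egr1. The octamer TGACNTCA, which holds the cAMP response element and its close relatives, was found on either strand in 8.83% of 32851 windows of all genes. The heptamer TGANTCA, the TPA response element read by AP-1, was found in 7.81%, the EGR site GCGNGGGCG in 5.55% and the CArG box of serum response factor in 1.63%. Of the members, 4 of 8 held at least 1 of these letter strings. The stretches shown are those around the octamers of Jun and of both Creb5 starts and around the EGR site of Fosb, with the motif in capitals and 5′ to 3′ on the gene's strand. They lie on chr4:95052248-95052279 (minus strand, Jun), chr6:53287246-53287269 (plus, the upstream start of Creb5), chr6:53573154-53573185 (plus, the second start of Creb5) and chr7:19310075-19310107 (minus, Fosb), each a promoter stretch before the transcript start.
Jun: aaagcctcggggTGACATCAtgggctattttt
Creb5, upstream start: aggaatcccacgTGACGTCAccgg
Creb5, second start: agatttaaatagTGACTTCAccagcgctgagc
Fosb: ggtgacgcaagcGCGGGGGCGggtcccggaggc

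In Jun and at the upstream start of Creb5 the octamer had the same place, from base -45 to base -38 counted from the start. The Creb5 copy is the full palindrome of the cAMP response element. At the second Creb5 start the octamer lay at -208 to -201, and a TPA response element at -45 to -39, which overlaps no octamer. The EGR site lay at -50 to -42 in Fosb and at -79 to -71 in Fosl2. The windows of Fos, Junb, Jund and Atf3 held none of the 4 strings, and no member held a CArG box in its window. Windows are set on RefSeq starts, which lie 34706 bases inside the deposited gene for Atf3, 671 bases inside it for Fosl2 and 1210 bases before it for Jund, so sequence at the deposited starts of these 3 genes was not searched. These are matches of letters, and gene-level values do not say which Creb5 start was used.

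The FOS family was led by Fosl2 (ENSMUSG00000029135, chr5:32135801-32157842, plus strand), which encodes FRA2, a FOS relative that lacks the strong activation domain of FOS. It had normalized counts of 341, 369 and 348 in DMSO and 498, 509 and 365 in αKG. αKG replicates 1 and 2 were above all DMSO libraries and αKG replicate 3 lay inside the DMSO range, so the groups overlapped. The means were 353 ± 14.6 and 457 ± 80.2 (SD, n = 3 each) and the log2 difference was 0.36 ± 0.13 (limma SE), or 0.51 without αKG replicate 3.

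Fos (ENSMUSG00000021250, chr12:85473890-85477273, plus strand), the founding partner of JUN in AP-1, was low. Its normalized counts were 56, 49 and 50 in DMSO and 33, 48 and 53 in αKG. αKG replicate 1 was the lowest of the 6 and αKG replicate 3 was inside the DMSO range. The means were 51.7 ± 3.79 and 44.7 ± 10.4 (SD, n = 3 each), with a log2 difference of -0.23 ± 0.22 (limma SE).

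The other two FOS genes were near the floor of the table. Fosl1 (ENSMUSG00000024912, chr19:5447547-5455946, plus strand), which encodes FRA1, had normalized counts of 5, 6 and 7 in DMSO and 5, 4 and 4 in αKG. Fosb (ENSMUSG00000003545, chr7:19302696-19310051, minus strand), known for its long-lived splice form ΔFOSB, had 7, 11 and 5 in DMSO and 5, 3 and 11 in αKG. Both pairs of groups overlapped. Over a group's 3 libraries Fosl1 rested on an estimated 18 reads in DMSO (95% exact Poisson interval 10.7 to 28.4) and 13 in αKG (6.92 to 22.2), and Fosb on 24 (15.4 to 35.7) and 20 (12.2 to 30.9). These intervals cover counting error only and overlapped within each gene, so a difference was not detectable at this depth. The end of Fosl1 also lies over Ccdc85b on the other strand, whose own normalized counts were 64, 64 and 57 in DMSO and 38, 44 and 41 in αKG. The study's sequencing methods, which name adult cardiomyocytes, left out reads lying over several genes. Whether the counting kept strands apart was not stated. Reads in this overlap may thus be missing from Fosl1, and its few reads cannot be assigned with certainty.

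In the JUN family, Jun itself (ENSMUSG00000052684, chr4:95049034-95052222, minus strand, a single exon) had normalized counts of 313, 324 and 358 in DMSO and 340, 367 and 624 in αKG. αKG replicate 3 was far above the other 5 libraries, which spanned 313 to 367. The means were 332 ± 23.5 and 444 ± 157 (SD, n = 3 each) and the log2 difference of 0.37 ± 0.20 (limma SE) became 0.09 without αKG replicate 3. An antisense gene, Junos, overlaps Jun, and its own normalized counts stayed between 1 and 6 in the 6 libraries.

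Jund (ENSMUSG00000071076, chr8:70698949-70700616, plus strand, a single exon), the JUN gene known for steady expression in resting cells, had normalized counts of 238, 279 and 269 in DMSO and 249, 291 and 352 in αKG. The highest value was again in αKG replicate 3, and the groups overlapped. The log2 difference was 0.17 ± 0.13 (limma SE), or 0.04 without αKG replicate 3. An antisense gene, Gm11175, overlaps Jund, with normalized counts of 7, 5 and 8 in DMSO and 3, 8 and 5 in αKG. As for Fosl1, reads in such an overlap may be missing from Jund, and likewise from Jun.

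Junb (ENSMUSG00000052837, chr8:84976910-84978718, minus strand), which can oppose JUN on some targets, differed the other way. The libraries held normalized counts of 72, 69 and 65 in DMSO and 57, 65 and 42 in αKG. αKG replicate 2 equalled the lowest DMSO library and αKG replicate 3 had the lowest count of all. The means were 68.7 ± 3.51 and 54.7 ± 11.7 (SD, n = 3 each), with a log2 difference of -0.34 ± 0.20 (limma SE) that became -0.17 without αKG replicate 3. Thus in αKG replicate 3 the 3 JUN genes lay at opposite ends: log2 distances from the DMSO mean were 0.91 for Jun, 0.43 for Jund and -0.69 for Junb.

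Egr1 (ENSMUSG00000038418, chr18:34859823-34864984, plus strand), a zinc finger factor that serum and stretch induce through serum response factor, was lower in every αKG library. In normalized counts it had 313, 320 and 329 in DMSO and 259, 245 and 254 in αKG. The groups did not overlap, and within each group the libraries were close together. The means were 321 ± 8.02 and 253 ± 7.09 (SD, n = 3 each), with a log2 difference of -0.34 ± 0.08 (limma SE), and it was -0.35 without αKG replicate 3.

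Atf3 (ENSMUSG00000026628, chr1:191170296-191218039, minus strand), a stress-induced bZIP factor that often represses, was higher in every αKG library. Its normalized counts were 51, 79 and 59 in DMSO and 86, 112 and 107 in αKG. The groups did not overlap, though the highest DMSO and the lowest αKG library were close. The means were 63.0 ± 14.4 and 102 ± 13.8 (SD, n = 3 each), with a log2 difference of 0.70 ± 0.20 (limma SE).

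Creb5 (ENSMUSG00000053007, chr6:53287270-53700376, plus strand), which encodes a CREB and ATF relative that binds the cAMP response element alone or with JUN, had the widest difference of the 10. Its normalized counts were 117, 120 and 104 in DMSO and 463, 530 and 381 in αKG. Every αKG library was over 3 times the highest DMSO library, and αKG replicate 3 was the lowest of the αKG group. The means were 114 ± 8.5 and 458 ± 74.6 (SD, n = 3 each), a ratio of 4.03 and a log2 difference of 1.99 ± 0.13 (limma SE). The log2 distance from the DMSO mean was 2.02, 2.21 and 1.74 in αKG replicates 1, 2 and 3. A TEC locus (a transcript awaiting experimental confirmation in the annotation), Gm44080, lies within Creb5 on the same strand (chr6:53667770-53669983), and its normalized counts were 0, 1 and 0 in DMSO and 9, 16 and 4 in αKG.

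**Figure D1:**
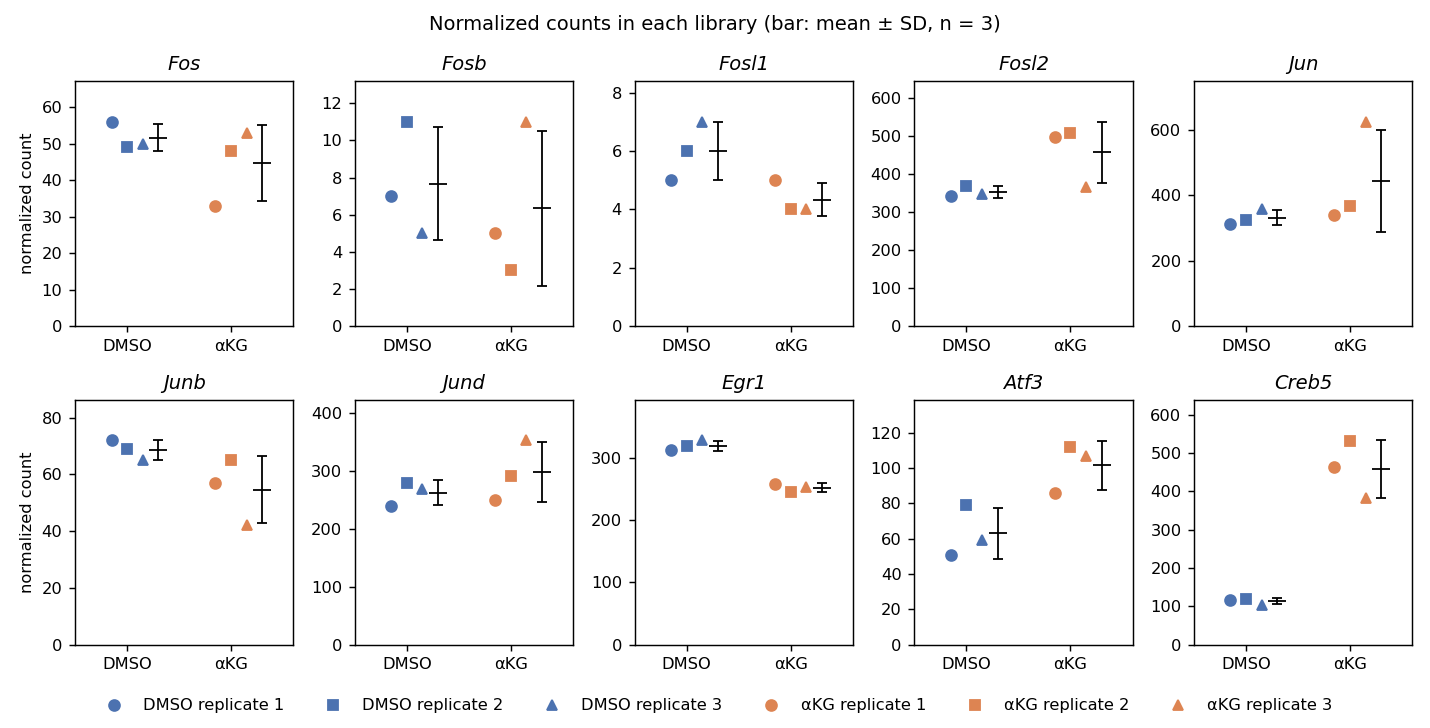
Normalized counts (vertical axes, from 0, one scale per gene) of the 10 genes in the 3 DMSO libraries (blue) and the 3 αKG libraries (orange), with symbols for replicates 1 to 3 and bars for the mean ± SD. Creb5, Atf3 and Egr1 are the genes whose groups lie apart; for Jun, Jund and Junb the outermost αKG point is replicate 3, and for Fosl2 replicate 3 sits among the DMSO points.

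Of the 10 members, 1 (Creb5) passed in limma, beside 3.78% of all genes; since the comparison was used to choose it, nothing is read from this. Its log2 difference lay between 1.88 and 2.12 over 15 other settings of the processing. The groups did not overlap for 3 members, 2 higher in αKG (Atf3, Creb5) and 1 lower (Egr1). Over all genes 28.3% had groups apart, 13.7% higher and 14.6% lower, and nothing is read from the members' count. The αKG mean was the higher one for 5 members and the lower one for 5, and the median log2 difference over the 10 was -0.03.

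With αKG replicates 1 and 2 alone, 5 members lay outside the DMSO range: Fosl2, Atf3 and Creb5 above it, Fos and Egr1 below it. By the same measure 57.8% of all genes lay outside. The other 5 (Fosb, Fosl1, Jun, Junb, Jund) had a replicate 1 or 2 value within or equal to the edge of the DMSO range.

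**Figure D2:**
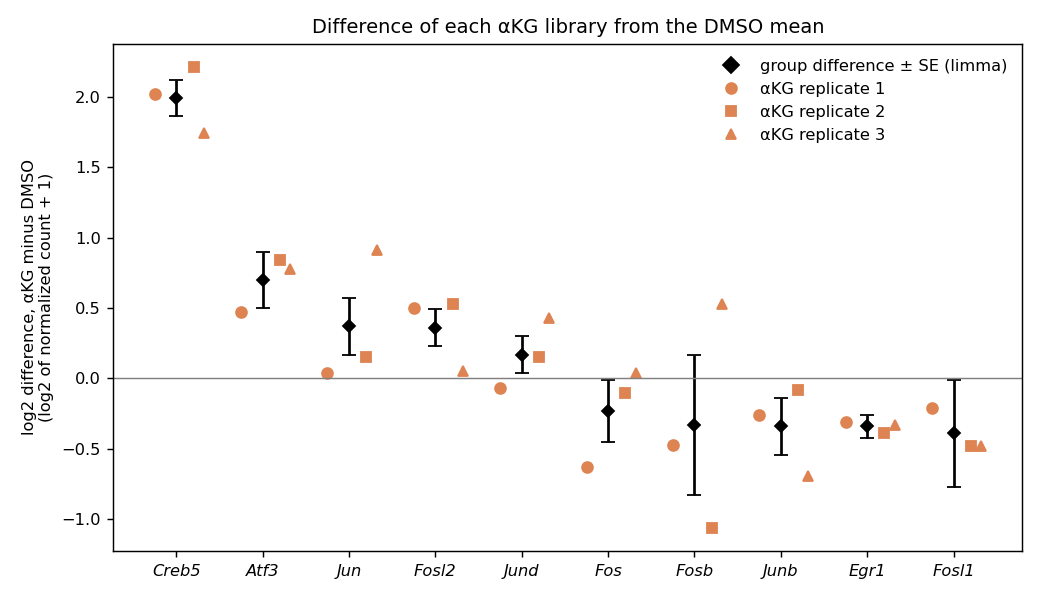
Log2 difference of each αKG library from the DMSO mean (orange, by replicate) and the group difference with its limma SE (black) for the 10 genes, ordered by the group difference. Creb5 stands at 1.99, the next gene, Atf3, at 0.70, and the remaining 8 lie between -0.39 and 0.37.

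Levels can be compared between genes only per length, so the normalized counts were divided by the length of all annotated exons of a gene. On this scale Jund was the highest member in DMSO, with a mean of 157 per kb (143 to 167 over the 3 libraries), a level above that of 93.3% of protein-coding genes in the table. Jun followed at 104 per kb (98.1 to 112) and Egr1 at 71.5 per kb (69.8 to 73.4). Fosl2 was at 36.4 per kb (35.2 to 38.1), about the middle of the protein-coding genes, of which 53.3% were lower. Junb at 29.8 per kb (28.2 to 31.3), Atf3 at 29.2 (23.7 to 36.7) and Fos at 22.0 (20.8 to 23.8) came next. The range of Atf3 overlapped those of Fosl2, Junb and Fos, so its place among them is not fixed by these libraries. Creb5 was at 4.54 per kb (4.16 to 4.8), Fosl1 at 2.95 (2.46 to 3.44) and Fosb at 1.23 (0.801 to 1.76). The ranges of these last 3 did not overlap.

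In αKG the order per kb of exon was close to the same. Jund was at 178 per kb (149 to 211), Jun at 139 (107 to 196) and Egr1 at 56.3 (54.6 to 57.8), and the ranges of Jund and Jun now overlapped. Fosl2 and Atf3 had the same mean of 47.2 per kb, with ranges of 37.7 to 52.6 and 39.9 to 52.0. Junb at 23.8 per kb (18.3 to 28.2), Fos at 19.0 (14.0 to 22.5) and Creb5 at 18.3 (15.2 to 21.2) could not be ordered beyond their spread. Creb5 therefore lay well below every other member but Fosl1 and Fosb in DMSO and level with Fos and Junb in αKG.

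The place of Creb5 in this order depends on the length used. Its annotated exons add to 25021 bases in 23 blocks, whereas its longest transcript has 7917. Per kb of longest transcript its mean level was 14.4 in DMSO and 57.9 in αKG, place 8 and then place 4 of the 10. By the same measure Fosl2 was at 53.9 and 70.0, Atf3 at 31.8 and 51.2 and Egr1 at 71.5 and 56.3. In αKG this moved Egr1 from place 3 to place 5 and Fosl2 from 4 to 3, and Atf3, Junb and Fos also came lower in the order. Jun and Jund have 1 exon each, so their values are the same by either length.

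**Figure D3:**
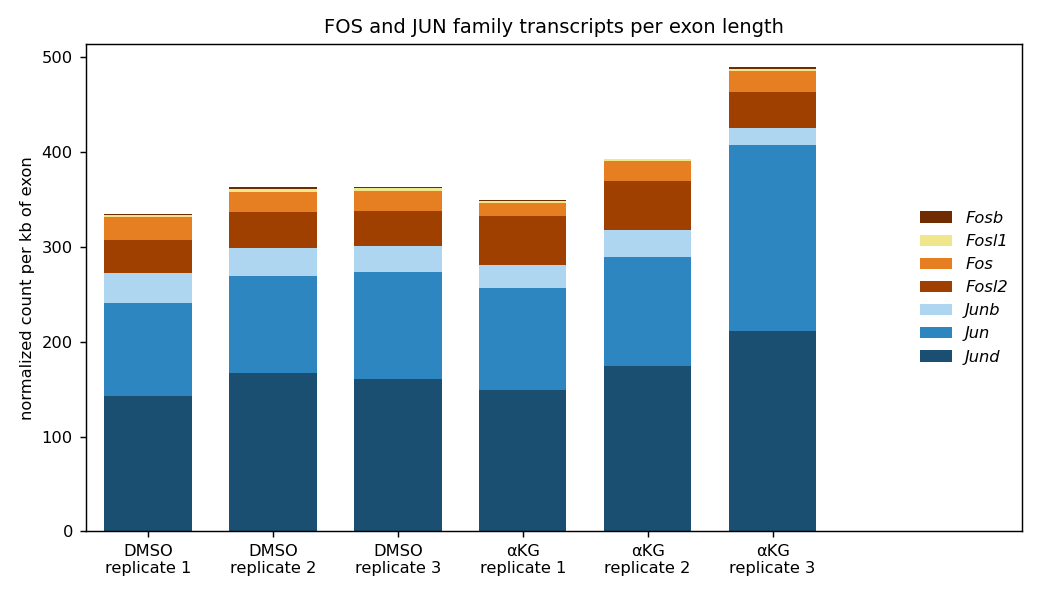
Normalized counts per kb of exon (vertical axis, from 0) of the 7 FOS and JUN family genes stacked in each of the 6 libraries, JUN genes in blue and FOS genes in yellow to brown. Jund and Jun make up most of every column, and the tallest column, αKG replicate 3, owes its height to Jun and Jund.

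Since AP-1 is a dimer, the supply of the 7 FOS and JUN family transcripts was set side by side within each library. FOS family transcripts summed to 62.6, 63.7 and 61.5 per kb in DMSO and 68.7, 75.4 and 64.0 in αKG. The sums of the JUN family were 272, 299 and 302 per kb in DMSO and 281, 318 and 425 in αKG. JUN family transcripts thus outnumbered FOS family ones in every library, with ratios of 4.35, 4.69 and 4.91 in DMSO and 4.08, 4.21 and 6.64 in αKG. The ratio was below all DMSO libraries in αKG replicates 1 and 2 and above them in αKG replicate 3. Its size depends on the length used, since Fosl2 has a higher level per kb of longest transcript, and the ratio by that length was not computed.

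Jund was the largest share of the pool in all 6 libraries, at 42.6% to 46.1%. The share of Jun was 28.0% to 30.9% in 5 libraries and 40.0% in αKG replicate 3. The share of Fosl2 was 10.5%, 10.5% and 9.9% in DMSO and 14.7%, 13.4% and 7.71% in αKG, so that αKG replicates fell on either side of DMSO. Junb had a lower share in each αKG library (7.09%, 7.18% and 3.73%) than in any DMSO library (9.35%, 8.27% and 7.78%). Fos made up 5.75% to 7.11% in DMSO and 4.02% to 5.19% in αKG, again without overlap. Shares in a pool are tied to each other, since 1 share is lower wherever another is higher.

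The ratio of libraries within a group does not use the comparison of treatments. The genes of a like mean set beside it were matched on the mean over all 6 libraries, αKG included. In DMSO the highest library of Egr1 was 1.05 times the lowest, where genes of a like mean (within 2-fold) had a median ratio of 1.1. The ratio was 1.14 beside a median of 1.26 for Fos and 1.11 beside 1.22 for Junb. These 3 immediate early genes were less scattered between DMSO cultures than the middle gene of their level. The others were not: Fosb, at very low counts, had 2.2 beside 2.0, and Jun and Atf3, given below, were also more scattered. Creb5 had 1.15 beside 1.1, but with means of 114 in DMSO and 458 in αKG its comparison genes were not matched at its DMSO level. Jun and Jund had ratios of 1.14 and 1.17 beside 1.08 and 1.1, and Fosl2 had 1.08 beside 1.08. Atf3 was the most scattered for its level, with a ratio of 1.55 beside a median of 1.19, larger than that of 92.8% of like genes. Of the genes like Egr1, Fos and Junb, 20.5%, 22.4% and 18.4% had smaller ratios still. Between pairs of DMSO libraries the chi-square of estimated reads over 8 members was 1.35, 0.945 and 0.889 per member, about what counting error gives. Nothing is read from the small DMSO ratios. In αKG, Jun had a ratio of 1.84 beside a median of 1.21, larger than that of 96.8% of like genes, whereas that of Egr1 was 1.06 beside 1.23, with only 5.57% of like genes smaller. The αKG ratio of Creb5 was 1.39 beside 1.23 and that of Fosl2 was also 1.39, beside 1.2.

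Over the 6 libraries the members did not vary as a block. Pearson's r of log2(normalized count + 1) between member pairs had a median of -0.06. These are descriptions over 6 shared libraries, which include the difference between the groups. Creb5 ran with Atf3 (r = 0.85) and Fosl2 (0.83) and against Egr1 (-0.99). Without αKG replicate 3 the last 2 values were 0.99 and -0.99. Jun ran with Jund (0.90) and against Junb (-0.94), and both values were nearer 0 without αKG replicate 3 (0.66 and -0.48). Junb and Fos went from 0.10 to 0.95 by leaving out that library.

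**Figure D4:**
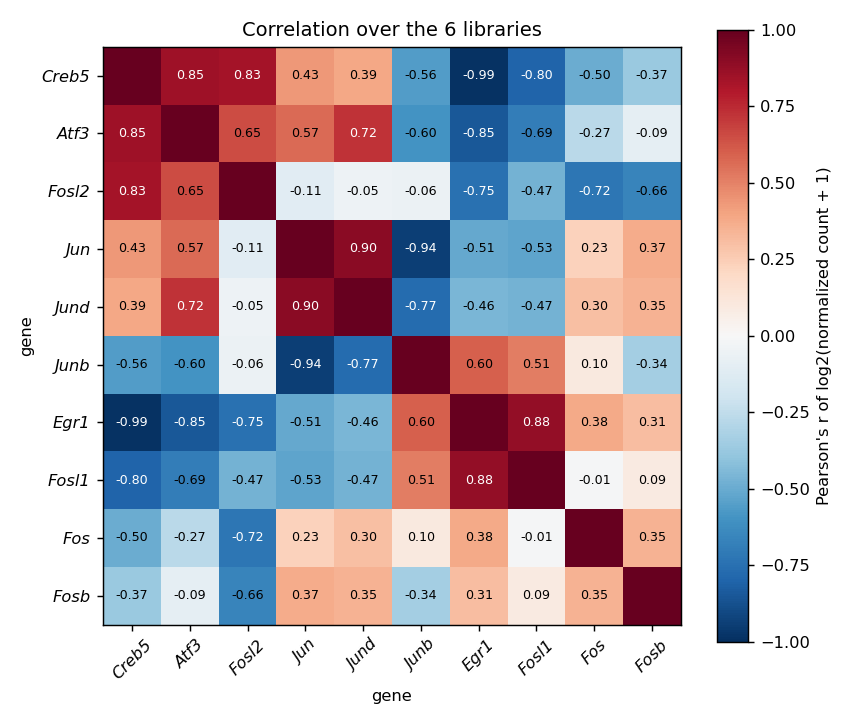
Pearson's r of log2(normalized count + 1) over the 6 libraries for every pair of the 10 genes, from -1 (dark blue) to 1 (dark red). Creb5, Atf3 and Fosl2 form a red corner with Egr1 opposed to them (-0.99 with Creb5), and Jun and Jund pair at 0.90 with Junb opposed to Jun at -0.94.

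Among 8290 other genes with a mean normalized count of at least 100, the 3 whose pattern over the 6 libraries was most like Creb5 were Ccdc82 (r = 0.998), Cep295 (0.995) and Insig1 (0.995). Insig1, which restrains sterol regulated transcription, had normalized counts of 257, 240 and 233 in DMSO and 456, 468 and 392 in αKG. Cep295, a centriole protein gene, had 475, 468 and 461 in DMSO and 765, 772 and 743 in αKG. Ccdc82 had 142, 149 and 138 in DMSO and 243, 248 and 216 in αKG. As with Creb5, replicate 2 was the highest and replicate 3 the lowest of the αKG libraries in all 3 genes. With 6 libraries, 180 genes had an r over 0.95 with Creb5.

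The genes most like Fos were Ptgds, Sub1 and AW209491, each with r = 0.992. Ptgds, a prostaglandin D synthase gene, had normalized counts of 163, 142 and 141 in DMSO and 100, 142 and 148 in αKG. Sub1, a transcriptional coactivator gene, had 265, 240 and 243 in DMSO and 195, 236 and 248 in αKG, and AW209491 had 144, 138 and 141 and then 120, 139 and 142. In all 3, as in Fos, αKG replicate 1 was the lowest of the 6 libraries. The count over 0.95 for Fos was 51 genes.

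The wider pathway was followed in 9 gene lists, chosen with earlier results of these data known. Of 234 genes measured over them, 13 passed in limma as higher and 3 as lower in αKG. Together these were 6.84%, beside 3.78% of all genes, but 6 of the 16 were proliferation genes. With a filter on a mean of at least 10, 872 of 13409 genes passed, and again 16 pathway genes. Nothing is therefore read from the higher share. The median log2 difference of the 234 was 0.03, and limma-voom on estimated reads called 9 of them. Without αKG replicate 3, 96 passed (41.0%), beside 37.2% of all genes in the same fit, and without αKG replicate 1 or 2 none did. Without DMSO replicate 1 the count was 12, and without DMSO replicate 2 or 3 it was 1.

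Of the relatives of Creb5 in the CREB and ATF group, 16 were measured (of 17 listed). Among them 1 fell, none rose and the median log2 difference was 0.01. The one that fell was Crebrf, whose product binds CREB3 and speeds its loss. Its normalized counts were 575, 596 and 631 in DMSO and 432, 467 and 480 in αKG, a log2 difference of -0.39 ± 0.08 (limma adjusted p = 0.0365). Atf5, a stress-regulated ATF, had 231, 220 and 198 in DMSO and 471, 515 and 207 in αKG (log2 difference 0.77 ± 0.28, limma adjusted p = 0.122). Its αKG replicates 1 and 2 were above every DMSO library while replicate 3 was at the DMSO level.

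Among other bZIP factors, 2 of 24 measured (of 26 listed) rose and none fell, with a median log2 difference of 0.14. Bach2, a repressor that pairs with small MAF proteins, had normalized counts of 83, 79 and 107 in DMSO and 144, 147 and 149 in αKG, a log2 difference of 0.72 ± 0.15 (limma adjusted p = 0.0374). Nfe2l3, a cap'n'collar factor that also pairs with small MAFs, had 12, 11 and 13 in DMSO and 64, 64 and 21 in αKG, a log2 difference of 1.80 ± 0.41 (limma adjusted p = 0.0461). In αKG replicate 3 it was less far from DMSO than in the other two.

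Of the other immediate early genes, 4 of 50 measured (of 51 listed) rose and none fell, with a median log2 difference of 0.13. They were Hbegf, an EGF receptor ligand; Btg2, which restrains proliferation; Ccn2, a matricellular protein gene; and Plk2, a stress-responsive polo-like kinase. Btg2 had normalized counts of 151, 155 and 179 in DMSO and 329, 321 and 211 in αKG, a log2 difference of 0.80 ± 0.17 (limma adjusted p = 0.0405). The log2 differences of the other 3 were 0.51 ± 0.10 for Hbegf, 0.57 ± 0.13 for Ccn2 and 0.46 ± 0.11 for Plk2 (limma adjusted p = 0.0367, 0.0454 and 0.0465). In each of the 4, αKG replicate 3 was the αKG library nearest to DMSO. Without αKG replicate 3, 14 of the list passed as higher and 4 as lower, beside 37.2% of all genes. With limma-voom on estimated reads, 0 of the 50 were called.

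The regulators that act on these promoters (serum response factor, its ternary complex and myocardin-related partners, CREB coactivators and EGR corepressors) had 0 of 17 genes past the threshold in limma and a median log2 difference of -0.14. Their count at an unadjusted p under 0.05 was 0 higher and 4 lower, where 28.1% of all genes had such a p, and limma-voom on estimated reads called 0. Their summed normalized counts were 11871 to 12095 in DMSO and 10559 to 11577 in αKG. Groups lay apart for 7 of the 17 as lower and 0 as higher, beside 14.6% and 13.7% of all genes. Without αKG replicate 3, 6 passed as lower and 0 as higher, beside 37.2% of all genes in both directions. Nab2, a corepressor of EGR1, had normalized counts of 355, 331 and 342 in DMSO and 266, 227 and 300 in αKG, with a log2 difference of -0.38 ± 0.11 (limma adjusted p = 0.0781). Like Egr1 it had groups that did not overlap, lower in αKG. For Crebbp, a CREB-binding acetyltransferase gene, the log2 difference was -0.17 ± 0.06 (limma adjusted p = 0.105).

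The MAP kinase cascade, which carries growth factor and stress signals to these genes, also had 0 of 34 genes past the threshold in limma, with a median log2 difference of -0.09. At an unadjusted p under 0.05 there were 2 higher and 4 lower, and limma-voom called 0. Braf had normalized counts of 511, 521 and 518 in DMSO and 731, 748 and 557 in αKG, with a log2 difference of 0.38 ± 0.11 (limma adjusted p = 0.0757). Its αKG replicate 3 was the nearest to DMSO.

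The phosphatases and feedback inhibitors of that cascade had 1 gene that rose and 1 that fell of 17 measured (of 19 listed). Dusp8, a phosphatase of the JNK and p38 kinases, had normalized counts of 96, 97 and 85 in DMSO and 290, 280 and 319 in αKG, a log2 difference of 1.67 ± 0.11 (limma adjusted p = 0.000626). It was the pathway gene with the smallest p, and all 3 αKG libraries were alike. Dusp5, a nuclear MAP kinase phosphatase, had 205, 197 and 218 in DMSO and 119, 121 and 159 in αKG, a log2 difference of -0.64 ± 0.14 (limma adjusted p = 0.0402).

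Of 40 measured AP-1 target genes (of 45 listed), 1 rose and 1 fell, with a median log2 difference of 0.14. The one that rose was Hbegf, given above. Procr, the protein C receptor of endothelium, fell from 117, 123 and 93 in DMSO to 51, 41 and 52 in αKG, a log2 difference of -1.19 ± 0.18 (limma adjusted p = 0.0152). Endothelial markers fell as well: 9 of 12 passed as lower in αKG, while limma-voom called 4 of the 12. Their summed normalized counts were 2366 to 2479 in DMSO and 1611 to 1761 in αKG. The part of endothelial RNA in the Procr value was not tested. The summed AP-1 targets were 10217 to 10287 in DMSO and 13046, 13289 and 9420 in αKG replicates 1 to 3, above DMSO in replicates 1 and 2 and below it in replicate 3. Without αKG replicate 3, 19 targets passed as higher and 2 as lower, beside 37.2% of all genes.

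Heat shock genes, which handling of cells can induce along with Fos and Egr1, had 0 of 15 past the threshold in limma (1 higher and 2 lower at an unadjusted p under 0.05, and 0 in limma-voom). Their summed normalized counts were 6943 to 7101 in DMSO and 6805 to 7070 in αKG. Bag3, a cochaperone gene, had a log2 difference of -0.33 ± 0.10 (limma adjusted p = 0.0876). Hspa1b, an inducible HSP70 gene, had normalized counts of 24, 23 and 20 in DMSO and 13, 11 and 13 in αKG, a log2 difference of -0.81 ± 0.28 (limma adjusted p = 0.105).

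**Figure D5:**
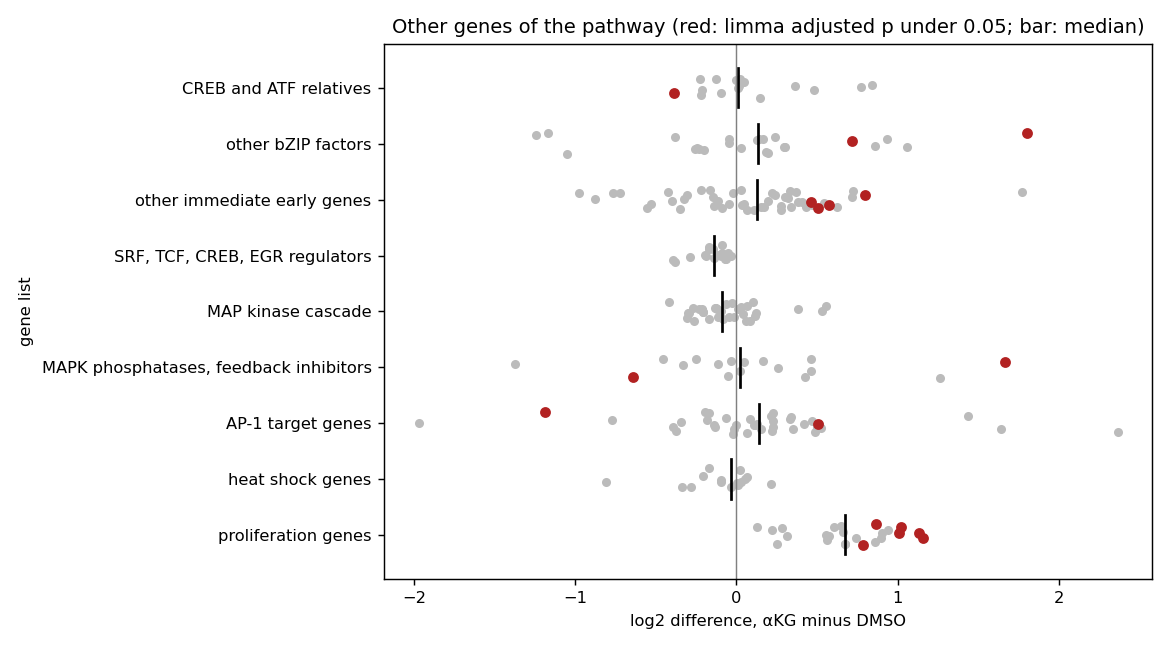
Log2 difference, αKG minus DMSO, of each measured gene in the 9 lists (points, red where the limma adjusted p is under 0.05; vertical bar, list median). Most points lie within 1 of 0, with red points in 6 lists and 6 of them among the proliferation genes.

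Proliferation genes and cell type markers moved with the same libraries as several members. Of 24 proliferation genes 6 rose, none fell and the median log2 difference was 0.67. Their summed normalized counts were 12561, 8714 and 6809 in DMSO and 15098, 14406 and 16601 in αKG. The 4 with the smallest p were Cenpe, Top2a, Mki67 and Bub1, with log2 differences of 1.13 ± 0.18, 1.02 ± 0.19, 0.78 ± 0.15 and 1.16 ± 0.25 (limma adjusted p = 0.0204, 0.0289, 0.034 and 0.0422). Like Creb5, Atf3 and Egr1, this sum set all αKG libraries apart from all DMSO libraries, αKG replicate 3 included. Other sums did so too, among them those of endothelial markers (2366 to 2479 in DMSO, 1611 to 1761 in αKG), mural markers and cardiomyocyte markers. The part of any of these in those members' values was not tested. Unlike those members, the proliferation sum differed almost 2-fold between DMSO libraries.

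The fibroblast and epicardial markers followed αKG replicates 1 and 2, as Fosl2 did. Fibroblast markers (12 of 12 measured) summed to 3801 to 3985 in DMSO and to 8444, 8197 and 3839 in αKG replicates 1 to 3. Epicardial markers (12 measured, Muc16 at 0 in a library) summed to 553 to 600 in DMSO and to 1461, 1442 and 542. None of these 24 genes passed in limma with all libraries (7 fibroblast and 3 epicardial markers had an unadjusted p under 0.05, and limma-voom called 0), while 10 and 12 passed as higher without αKG replicate 3. The 2 most abundant of each were Col1a1 and Col1a2 (log2 differences of 0.85 ± 0.26 and 1.10 ± 0.31), and Tbx18 and Krt18 (0.26 ± 0.09 and 0.83 ± 0.24). Their part in the Fosl2 value was not tested.

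The remaining markers were as follows. Cardiomyocyte markers had 0 of 12 past the threshold in limma (4 at an unadjusted p under 0.05, 3 of them higher, and 0 in limma-voom), with log2 differences of 0.45 ± 0.13 for Ttn and of 0.27 ± 0.07 for Ryr2, which became 0.00 and -0.12 after quantile normalization. Of the endothelial markers with the highest means, Cdh5 fell (log2 difference -1.04 ± 0.16, limma adjusted p = 0.0181) and Flt1 had 0.27 ± 0.19. Of 11 mural markers (Kcnj8 at 0 in a library) 2 rose, among them Cspg4 (0.66 ± 0.13, limma adjusted p = 0.0362), while limma-voom called 0. The mural sum was 4627 to 4740 in DMSO and 4987 to 5430 in αKG. The most abundant mural marker, Abcc9, had -0.28 ± 0.10. Only 4 of 12 macrophage markers were measured, with Csf1r at 0 in a library and sums of 22 to 35 in DMSO and 24 to 41 in αKG; Mrc1 had a log2 difference of -0.10 ± 0.36 and Cd68 one of 0.59 ± 0.60.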

How the data were processed

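Total RNA of 6 neonatal cardiomyocyte cultures was sequenced, 3 with DMSO and 3 with αKG. As the submitters' processing notes list, the authors used Trimmomatic 0.39 for trimming, aligned reads to mm10 (GRCm38.p5) with STAR 2.7.10a, counted per gene with featureCounts 2.0.3 and normalized with DESeq2 1.30.1. The deposited values, treated here as a score, are reads divided by a size factor and rounded by the authors. They are not raw counts, so no count test was run on them. The library kit keeps strand, but counting was not stated to use it. The value of 1 read was estimated from the steps in the values, at 0.9259 to 1.1188, and gave the estimated reads (on simulated data 19 of 20 factors were recovered within 0.1%). No molecular identifiers are named, so PCR copies of 1 molecule count as separate reads, and intervals cover counting error only.

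All 20066 genes of the 6 libraries entered 1 limma model (3.58.1, R 4.3.3, trend allowed) on log2(value + 1) without a filter, two-sided with Benjamini-Hochberg adjustment. The pseudocount understates differences of low genes. Simulated reads with 200 changed genes gave 170 calls of the right sign and 1 false call. The changes were placed only in genes of higher count, and no simulated library stood apart as αKG replicate 3 does. The simulation therefore does not give the error rate of the calls made here. Exon lengths came from GENCODE M21, in which 99.0% of genes had the deposited position (Junb was an exception), and promoters from RefSeq. Files were read and figures drawn with Python 3.11.15.

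Members and lists were chosen with earlier results of these data known. Named were all 10 members; up to 4 genes of each pathway list with the smallest p past the threshold, or the 2 with the smallest p where fewer than 2 passed; the 3 genes most like Creb5 and Fos; and the 2 marker genes of each list with the highest mean. One gene that this rule names is not reported here. Genes that overlap a member were named after their values were seen. The alternatives were no trend, a filter, other pseudocounts and scalings, limma-voom, a replicate block, leaving out each library and, added after the data were seen, DMSO replicates 2 and 3 averaged. The last was added because their estimated reads differed by a chi-square of 1.02 per gene, but of 10.7 per gene over proliferation genes, so they were kept as separate samples. Same-numbered libraries did not deviate together over all genes (correlations of -0.035, 0.057 and 0.017). Genes of low count entered these correlations, which cannot exclude a shared isolation, so whether the numbers pair the libraries is not known.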

Additional observations from a re-analysis of the deposited data

How the results depend on the processing

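The log2 differences of the members were recomputed under 15 alternatives, and 147 of 148 values moved by less than the spread between replicates. The exception was Fosl1, at -0.73 after quantile normalization. Fosb changed sign without αKG replicate 2 (0.03), and a filter on a mean of at least 10 left out Fosb and Fosl1. Over the alternatives Egr1 lay between -0.37 and -0.30, Atf3 between 0.56 and 0.87, Fosl2 between 0.27 and 0.51, Jun between 0.09 and 0.53 and Jund between 0.04 and 0.29.

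Counts of calls depended on the settings more than values did, and the causes were not tested. The 759 genes and 16 pathway genes past the threshold became 27 and 1 without a trend of the variance, 346 and 7 with a pseudocount of 0.1, 362 and 9 with limma-voom on estimated reads, and 10 and 1 with DMSO replicates 2 and 3 averaged. The fit with the replicate number as a block gave 46 and 2. Leaving out 1 library gave 0 to 7466 genes and 0 to 96 pathway genes. An unadjusted p under 0.05 held for 5648 genes and a change of at least 2-fold for 309. With libraries scaled to the same total 915 genes passed, of which 66.3% were higher in αKG (74.8% otherwise); this share was 97.8% with the replicate block and 51.8% without αKG replicate 3. Of 585 values of the other named genes 414 kept their call and direction, 154 lost the call, 15 gained it and 2 reversed: Ryr2 at -0.12 after quantile normalization and Mrc1 at 0.08 without αKG replicate 1 (-0.33 to 0.08 over the libraries left out). Dusp8 lost its call in 2 of 15 alternatives, and the other pathway genes named as past the threshold in 6 to 11. The low members Fosb and Fosl1 are limited by depth.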
